A study of Homo sapiens with 6 samples.

Results

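The genes described here build the sugar precursor of N-glycans and transfer it to proteins, and they were followed in UMUC3 bladder carcinoma cells with and without knockdown of GANAB. Members were the 29 genes whose symbol in the deposited tables matched a named set of oligosaccharyltransferase subunits, ALG enzymes and genes of dolichol-linked sugar donors. All 29 were found among the 21503 genes of the count table, and all 29 passed the filter on low counts. UMUC3 is an established human cell line, and both groups carried it in the bladders of C57 nude mice, hosts without mature T cells that keep B, natural killer and myeloid cells. Both groups were collected after 14 days, with no treatment of the mice named: 3 libraries came from control cells and 3 from GANAB knockdown cells. The sources used here do not give how the knockdown was made, whether it came from 1 clone, or the age of the mice. Libraries of a group are not said to come from separate animals, so p-values measure only how much these samples vary, and that variation may be technical.

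N-glycans are not built on the protein. A fixed oligosaccharide is first assembled on the membrane lipid dolichol, starting on the cytosolic face of the endoplasmic reticulum and ending in its lumen, where the last sugars added are glucoses. Oligosaccharyltransferase then moves the whole chain onto asparagines of proteins as they enter the lumen. GANAB, the catalytic subunit of glucosidase II, acts just after this transfer and removes glucoses that these genes put on.

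Control libraries held 11737837 to 36381218 counts and knockdown libraries 36619291 to 40039584. Control library 1 stood apart, because genes of the mitochondrial genome took 32.6% of its counts, against 2.18% to 6.53% in the other 5 libraries. Most of this came from the ribosomal RNA genes MT-RNR1 and MT-RNR2, with 29.2% of its counts, against 0.928% to 2.43% in the other 5. Replicates varied more in the control group, with a biological coefficient of variation of 53.4%, than in the knockdown group (10.7%). GANAB stood at 685, 825 and 661 CPM (TMM-normalized counts, made comparable between libraries of unequal depth) in controls 1, 2 and 3, and the 3 knockdown libraries gave 231, 238 and 231 CPM (log2 fold change -1.63, edgeR adjusted p = 0.00239). KRT8, KRT18, KRT7 and VIM, keratins and vimentin chosen as markers of the cell line, were detected in every library, and the leukocyte gene PTPRC stayed at or below 0.383 TPM. VIM was higher in the knockdown (log2 fold change 1.08, edgeR adjusted p = 0.0206), and the keratins did not pass. Of 40 marker genes of cells of the host bladder, 25 were tested, and the sources used here do not say whether mouse reads were separated. Of the 25, 5 (ACTA2, CNN1, MYH11, PDGFRB and UPK1A) rose and none fell. The summed level of all 40 was 243 to 324 TPM (transcript counts scaled by length, so that genes can be compared) in controls and 482 to 524 TPM in knockdown libraries. LUM, MS4A1, UPK3A and KRT20 were listed at 0 TPM in all 6 libraries.

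For 28 of the 29 genes the difference between the groups did not pass the test. With edgeR's quasi-likelihood test and an adjusted p under 0.05, 1 of 29 fell, RPN1, and none rose, while 8.31% of all 19430 genes tested passed, 3.72% lower and 4.59% higher. The median log2 fold change (knockdown minus control) was -0.09 over the 29 genes and 0.03 over all genes tested, with 19 of the 29 below 0. In 24 of the 29 the log2 fold change was smaller than 0.5 in size. At an unadjusted p under 0.05 there were 6 genes, RPN1, RPN2, DDOST, ALG13, ALG3 and DPM1, against 26.0% of all genes. Values of the groups did not overlap for 9 of the 29, with the knockdown lower in 7 and higher in 2; the shares over all genes were 37.6% in all, 15.7% with the knockdown lower and 21.9% with it higher. In these bulk samples fewer cells of a type and less RNA per cell cannot be told apart.

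**Figure D1:**
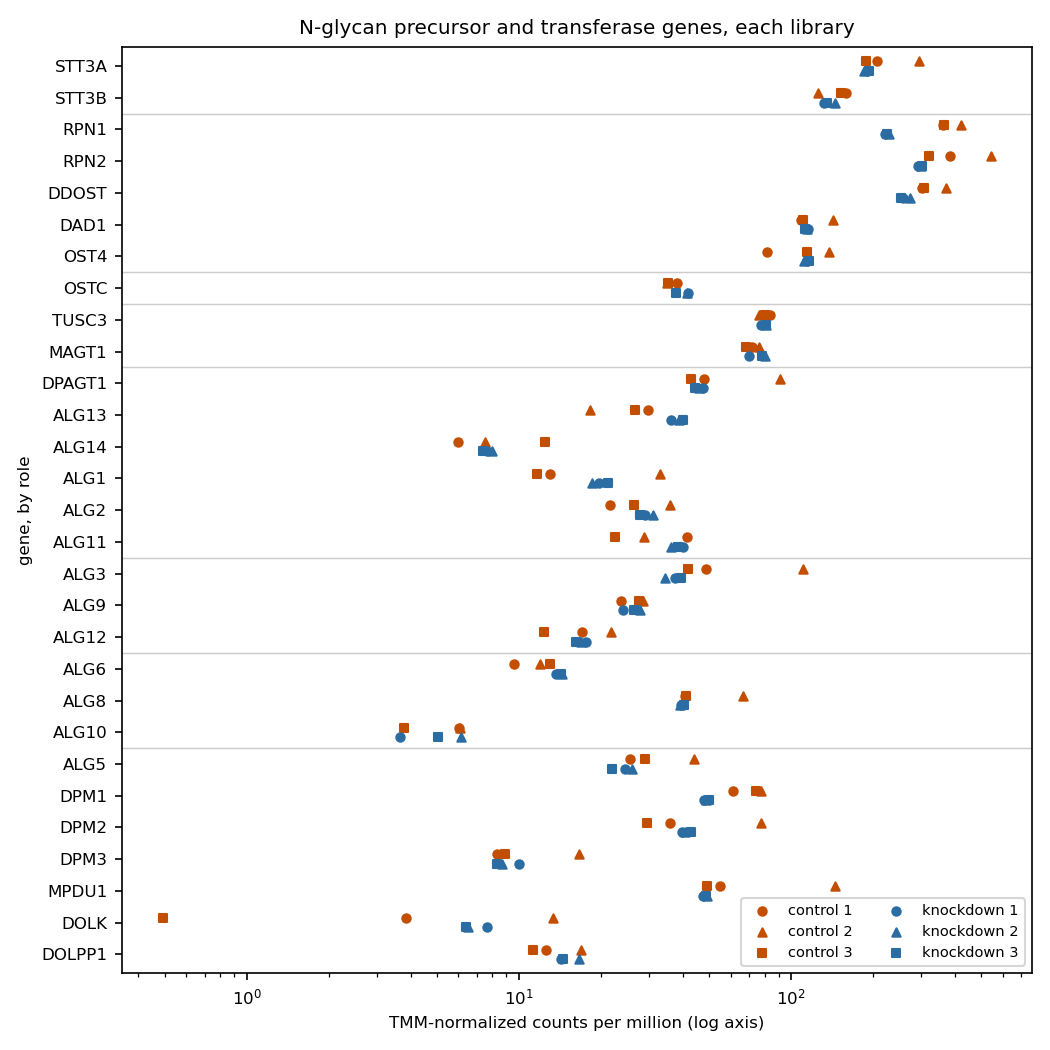
TMM-normalized CPM (log axis) of the 29 genes, ordered by role from the catalytic subunits at the top to the dolichol-linked donors at the bottom; each point is 1 library, orange for control and blue for knockdown. Knockdown points lie close together, while control library 2 (orange triangle) is the highest of all 6 libraries for 20 of the 29 genes.

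Oligosaccharyltransferase comes as a pair of complexes that share most subunits and differ in the catalytic one. RPN1 encodes ribophorin I, a shared subunit that brings certain membrane proteins to the enzyme. RPN1 (ENSG00000163902, chromosome 3, 128619970 to 128681075, minus strand, GRCh38) stood at 363, 422 and 365 CPM in controls 1, 2 and 3, and the knockdown libraries gave 222, 230.1 and 226 CPM. All 3 controls lay above all 3 knockdown libraries. RPN1 fell by 0.76 on the log2 scale (SE 0.128, 95% interval -1.06 to -0.46, edgeR adjusted p = 0.0168), a 1.69-fold difference. No other gene overlaps its exons in the annotation used. The call held without any one of the controls (adjusted p = 0.000759 to 0.0307) and was lost without knockdown library 1, 2 or 3 (log2 fold change -0.74, -0.77 and -0.76, edgeR adjusted p = 0.141, 0.126 and 0.137). Adding the host marker score to the fit also ended the call (-0.64, edgeR adjusted p = 0.210), a fit in which 1 gene passed in all. GANAB itself did not pass in that fit (-1.50, edgeR adjusted p = 0.0749). On the deposited TPM scale RPN1 did not pass (-0.52, limma adjusted p = 0.382), and it did once TPM was rescaled without mitochondrial genes (-0.62, limma adjusted p = 0.0406).

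RPN2 and DDOST encode the other large shared subunits, ribophorin II and the product known as OST48. RPN2 was at 384, 542 and 320.2 CPM in the controls and at 293, 299.99 and 304 CPM in the knockdown libraries, with a log2 fold change of -0.47 (SE 0.201, edgeR adjusted p = 0.189). DDOST was at 303, 371 and 308 CPM in the controls and at 259, 273 and 254 CPM in the knockdown libraries (-0.32, SE 0.136, edgeR adjusted p = 0.187). For both genes the groups did not overlap and control library 2 was the highest, and neither passed. Without control library 2 the values were -0.23 and -0.22. RPN2 shares exon sequence with MROH8 on the opposite strand and DDOST with the annotated transcript PINK1-AS, and the sources used here do not say whether counting used strand. Exons of 13 of the 29 genes overlap those of another gene, 5 on the same strand and 9 on the opposite one, STT3A (with CHEK1), OST4 (AGBL5) and DPAGT1 (C2CD2L) among them; the split of reads there is uncertain.

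The small shared subunits showed no such gap. DAD1, named as a defender against cell death, was at 108, 143 and 111 CPM in the controls and at 116, 114 and 112 CPM in the knockdown libraries (log2 fold change -0.08, 95% interval -0.42 to 0.26). OST4, a mini-protein that holds the catalytic subunit in place, was at 81.8, 138 and 115 CPM in the controls and at 115, 112 and 117 CPM in the knockdown libraries (0.04, 95% interval -0.42 to 0.49). Both sets of knockdown values lay inside the range of the controls, and without control library 2 the values were 0.06 and 0.23. RPN1 stood 0.76 below control on the log2 scale while DAD1 and OST4, partners in the same complexes, stood within 0.08 of it; the difference between these genes was not tested.

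STT3A and STT3B are the alternative catalytic subunits: STT3A works on proteins while they pass the translocon, and STT3B also reaches sites that were skipped. STT3A was at 207, 296 and 189 CPM in the controls and at 190.4, 186 and 193 CPM in the knockdown libraries (log2 fold change -0.28, SE 0.186, edgeR adjusted p = 0.391; -0.06 without control library 2). Control 2 alone lay high, and controls 1 and 3 lay beside the knockdown values. STT3B was at 159.6, 126 and 153 CPM in the controls and at 132, 145 and 135 CPM in the knockdown libraries (-0.09, SE 0.139, edgeR adjusted p = 0.744; -0.18 without control library 2), with the groups overlapping. On the TPM scale, where levels of different genes can be compared, the ratio of STT3A to STT3B was 1.57, 3.42 and 2.27 in the controls and 1.52, 1.55 and 1.78 in the knockdown libraries. Its log2 ratio was 0.51 lower in the knockdown (exact permutation test, 2-sided, p = 0.2, adjusted p = 0.3 over 3 ratios). With 3 libraries against 3 this test cannot give a p below 0.1, and the ratio of control 1 lay inside the knockdown range. The difference was -0.23 without control library 2 and -0.17 from CPM (exact permutation p = 0.9).

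OSTC belongs to the STT3A complex and links it to the translocon, while MAGT1 and TUSC3 are alternative thioredoxin-like subunits of the STT3B complex. OSTC was at 38.1, 35.1 and 35.5 CPM in the controls and at 41.96, 41.5 and 37.9 CPM in the knockdown libraries (log2 fold change 0.16, 95% interval -0.14 to 0.46). MAGT1 was at 71.9, 76.4 and 68.1 CPM in the controls and at 69.95, 80.2 and 78.1 CPM in the knockdown libraries (0.08, 95% interval -0.22 to 0.37). TUSC3 was at 83.6, 76.0 and 80.0 CPM in the controls and at 77.4, 80.7 and 80.9 CPM in the knockdown libraries (-0.00, 95% interval -0.28 to 0.27). These 3 genes were the steadiest of the 29 between control libraries, the highest control being 1.09, 1.12 and 1.10 times the lowest for OSTC, MAGT1 and TUSC3. Both STT3B-complex genes were thus present side by side, with TUSC3 the higher per length: the TPM ratio of MAGT1 to TUSC3 was 0.345, 0.315 and 0.362 in the controls and 0.316, 0.338 and 0.310 in the knockdown libraries (exact permutation p = 0.3, adjusted p = 0.3). The TPM ratio of OSTC to MAGT1 was 2.02, 1.93 and 1.79 in the controls and 2.31, 2.22 and 2.02 in the knockdown libraries, a log2 difference of 0.19 (exact permutation p = 0.1, the smallest possible, adjusted p = 0.3). From CPM that difference was 0.08 (exact permutation p = 0.6).

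Per length, the shared transferase subunits and STT3A had the highest levels of the 29. OST4 had the highest mean, 458 ± 205 TPM in controls (SD, n = 3) and 505 ± 10.1 TPM in knockdown libraries, followed in controls by DAD1 (263 ± 89.6 TPM), RPN2 (235 ± 89.3 TPM), RPN1 (207 ± 55.7 TPM), DDOST (206 ± 60.8 TPM) and STT3A (155 ± 56.2 TPM). In controls, neighbours in this order differed by less than the larger of their SDs. Within libraries OST4 still lay above DAD1 in controls 1, 2 and 3 (231 against 169, 628 against 348 and 516 against 272 TPM). In knockdown libraries DAD1 was at 280 ± 6.66 TPM and RPN2 at 193 ± 7.63 TPM. MPDU1 (98.6 ± 76.4 TPM) and DPM1 (88.5 ± 29.1 TPM) led the genes outside the transferase. At the other end stood DOLK, ALG14 and ALG10 at 3.60 ± 4.54, 3.53 ± 2.50 and 3.46 ± 0.889 TPM in controls. In control 1 mitochondrial genes took 35.6% of the TPM total, and 24 of the 29 genes had their lowest control TPM there; on the CPM scale control 1 was the lowest control for 12.

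**Figure D2:**
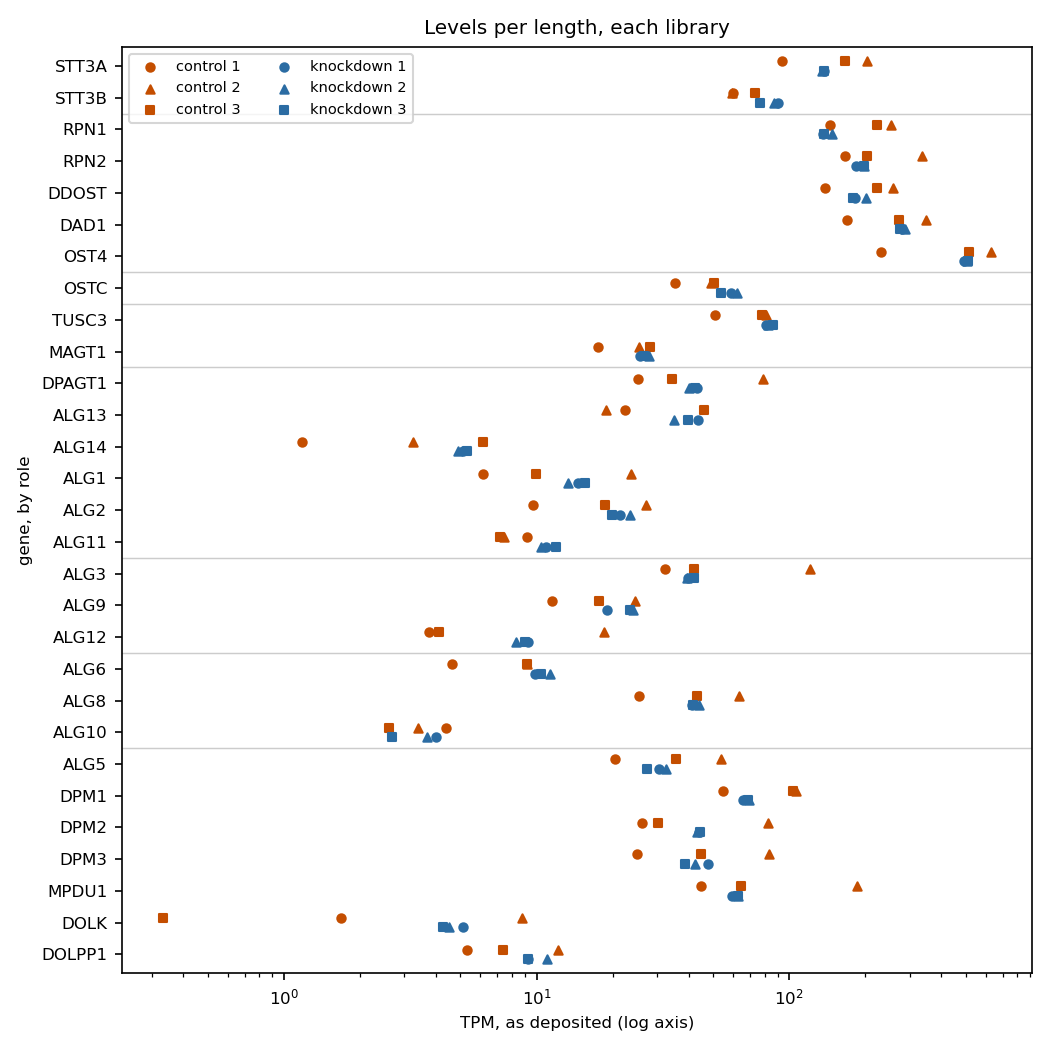
TPM as deposited (log axis) of the 29 genes in each library, in order of role. The shared transferase subunits and STT3A lie at or above 93.6 TPM in every library, and ALG10, ALG14 and DOLK lie near the bottom of the axis; control library 1 (orange circle) is often the lowest control.

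Assembly starts on the cytosolic face with DPAGT1, which attaches the first N-acetylglucosamine to dolichol phosphate and is the target of tunicamycin. DPAGT1 was at 47.9, 90.8 and 43.0 CPM in the controls and at 47.5, 45.99 and 44.3 CPM in the knockdown libraries (log2 fold change -0.40, SE 0.278, edgeR adjusted p = 0.417; 0.02 without control library 2). Controls 1 and 3 lay beside the knockdown values, and control 2 was at 1.998 times the mean of controls 1 and 3. ALG13 and ALG14 form the enzyme of the second step, with ALG13 catalytic and ALG14 its membrane anchor. ALG13 was at 29.7, 18.2 and 26.8 CPM in the controls and at 36.4, 38.8 and 40.2 CPM in the knockdown libraries, without overlap (0.63, SE 0.201, 95% interval 0.16 to 1.09, edgeR adjusted p = 0.0985). It was the largest positive value of the 29 and did not pass; it did with DESeq2 (0.60, adjusted p = 0.0426) and without control library 2 (0.44, edgeR adjusted p = 0.0151). ALG14, its partner, was at 6.00, 7.52 and 12.4 CPM in the controls and at 7.62, 7.996 and 7.40 CPM in the knockdown libraries (-0.16, 95% interval -0.88 to 0.55). Control 3 was high, and the knockdown values lay between the controls.

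ALG1, ALG2 and ALG11 add the mannoses of the cytosolic face. ALG1 was at 13.02, 33.0 and 11.7 CPM in the controls and at 19.7, 18.5 and 21.2 CPM in the knockdown libraries (log2 fold change 0.04, SE 0.387, edgeR adjusted p = 0.963). Control 2 lay above all knockdown libraries and controls 1 and 3 below them, so that without control 2 ALG1 was higher in the knockdown (0.68, edgeR adjusted p = 0.0109). ALG1 shares exon sequence with NAGPA, EEF2KMT and an antisense transcript of NAGPA, which carries the same limit. ALG2 had log2 fold changes of 0.06 with all libraries and 0.30 without control 2 (edgeR adjusted p = 0.884 and 0.110). ALG11, which overlaps UTP14C on its own strand, ranged from 22.6 to 41.6 CPM in controls and from 36.4 to 40.2 CPM in knockdown libraries (0.30, edgeR adjusted p = 0.453).

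Once the chain has been flipped into the lumen, ALG3, ALG9 and ALG12 add mannoses and ALG6, ALG8 and ALG10 add glucoses. ALG3, the first of these mannosyltransferases, was at 48.8, 111 and 41.9 CPM in the controls and at 37.6, 34.6 and 39.5 CPM in the knockdown libraries. Every control lay above every knockdown library, by little for controls 1 and 3. The log2 fold change was -0.85 (SE 0.353, edgeR adjusted p = 0.178), the most negative of the 29, and -0.28 without control library 2. ALG3 overlaps VWA5B2 on the opposite strand. ALG9 and ALG12 had log2 fold changes of -0.03 (95% interval -0.38 to 0.33) and -0.01 (-0.55 to 0.52). Of the glucosyltransferases, ALG6 ranged from 9.60 to 13.004 CPM in controls and from 13.7 to 14.4 CPM in knockdown libraries, without overlap (0.30, edgeR adjusted p = 0.381). ALG8 was at 40.8, 66.6 and 41.0 CPM in the controls and at 39.4, 39.2 and 40.6 CPM in the knockdown libraries (-0.32, edgeR adjusted p = 0.398; -0.04 without control library 2). ALG10, which adds the terminal glucose that the transferase recognises, stood at 3.65 to 6.14 CPM over all libraries (-0.11, edgeR adjusted p = 0.878). It has a close copy, ALG10B, at 14.2 to 26.1 CPM, without overlap between the groups (-0.46, edgeR adjusted p = 0.170). Per length, mean levels of ALG10 and ALG10B were 3.46 and 3.56 TPM in controls, and 3.46 and 2.78 TPM in knockdown libraries. The split of reads between the 2 genes is an estimate.

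The luminal enzymes take their sugars from dolichol phosphate mannose and dolichol phosphate glucose. DPM1, the catalytic subunit of dolichol phosphate mannose synthase, was at 61.4, 77.6 and 74.4 CPM in the controls and at 47.8, 48.6 and 49.99 CPM in the knockdown libraries. The groups did not overlap. DPM1 (ENSG00000000419, chromosome 20, 50934867 to 50958555, minus strand, GRCh38) had a log2 fold change of -0.54 (SE 0.138, 95% interval -0.87 to -0.22) and missed the threshold with an edgeR adjusted p of 0.0545. It passed in 6 of 20 alternatives, among them DESeq2 (-0.57, adjusted p = 0.00951) and the fit without control library 2 (-0.47, edgeR adjusted p = 0.0116); over all alternatives that left out 1 library the edgeR adjusted p was 0.0116 to 0.255. With the host marker score in the fit its value was -0.26 (edgeR adjusted p = 0.545).

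DPM2 and DPM3, the subunits that hold DPM1 at the membrane, did not share that gap. DPM2 was at 35.9, 77.6 and 29.5 CPM in the controls and at 39.9, 40.9 and 42.8 CPM in the knockdown libraries (log2 fold change -0.21 with all libraries and 0.33 without control library 2, edgeR adjusted p = 0.750 and 0.0594). DPM3 was at 8.31, 16.6 and 8.89 CPM in the controls and at 10.03, 8.66 and 8.34 CPM in the knockdown libraries (-0.32, edgeR adjusted p = 0.561; 0.07 without control library 2). For DPM2 the knockdown libraries lay above controls 1 and 3 and below control 2, and for DPM3 they lay within the control range. MPDU1, needed for use of both donors in the lumen, was at 54.96, 145 and 49.1 CPM in the controls and at 47.4, 49.0 and 48.6 CPM in the knockdown libraries (-0.78, SE 0.395, edgeR adjusted p = 0.262; -0.10 without control library 2). The groups did not overlap, but controls 1 and 3 lay next to the knockdown values. MPDU1 overlaps SOX15 and FXR2 on the opposite strand.

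ALG5 makes dolichol phosphate glucose, DOLK phosphorylates dolichol and DOLPP1 recycles dolichol pyrophosphate. ALG5 was at 25.6, 43.9 and 29.1 CPM in the controls and at 24.5, 26.03 and 22.1 CPM in the knockdown libraries (log2 fold change -0.44, edgeR adjusted p = 0.264; -0.17 without control library 2). DOLK was the least certain gene, with 105, 255 and 6 counts, or 3.86, 13.4 and 0.494 CPM, in controls 1, 2 and 3 and 6.41 to 7.64 CPM in knockdown libraries. Its log2 fold change was 0.20 with a 95% interval of -1.77 to 2.17. Without control 1, 2 or 3 it was -0.10, 1.56 and -0.38, so its sign depended on which control was used. DOLPP1 stood at 11.3 to 17.0 CPM in controls and 14.3 to 16.7 CPM in knockdown libraries (0.15, edgeR adjusted p = 0.710).

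**Figure D3:**
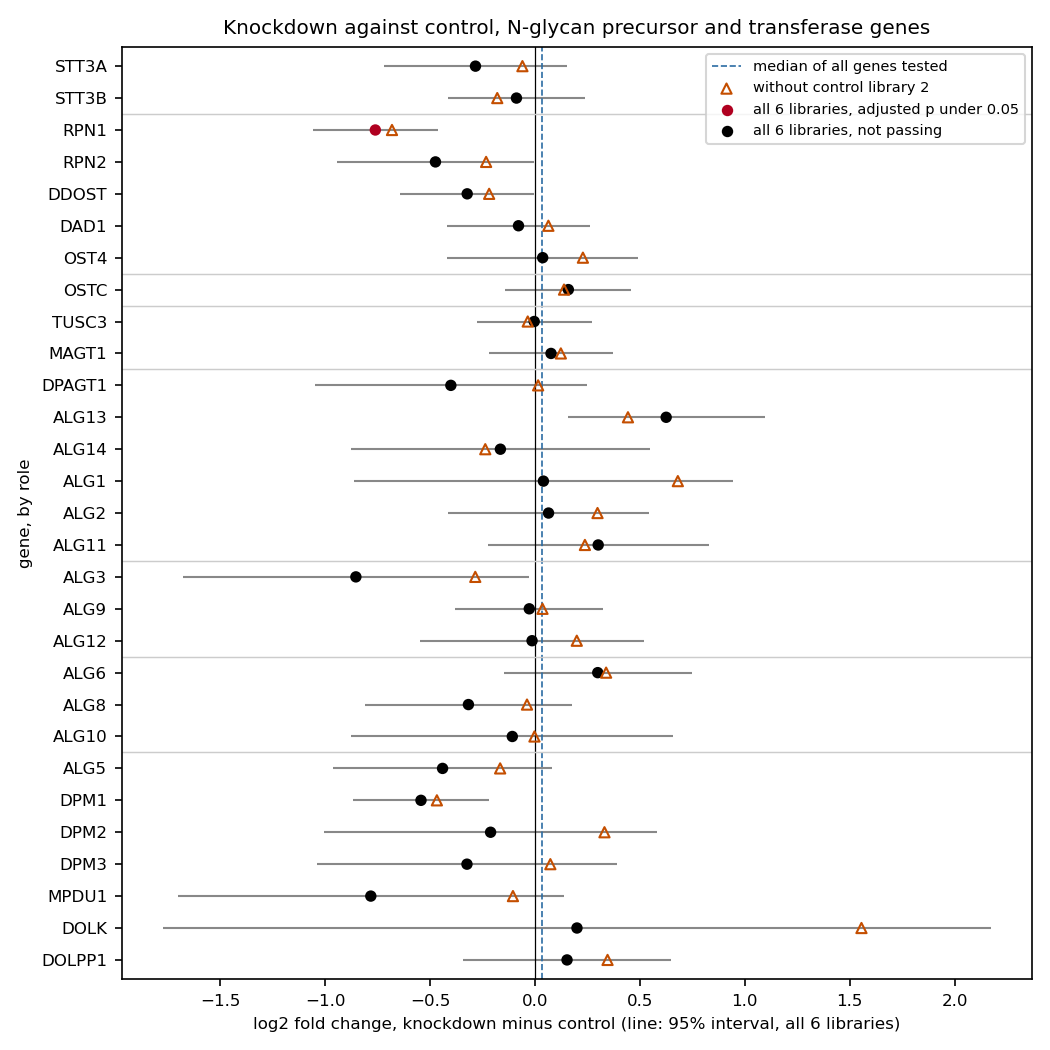
Log2 fold change (knockdown minus control) of the 29 genes in order of role, with the 95% interval from all 6 libraries as a line; triangles give the value without control library 2 and the dashed line the median of all genes tested, 0.03. RPN1, in red, is the gene that passed; for DOLK, MPDU1, ALG1, ALG3 and DPM2 the triangle lies farthest to the right of the point.

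The controls differed from each other in a way that many of these genes shared. Control library 2 had the highest CPM of all 6 libraries for 20 of the 29 genes, against 26.6% of all genes tested. By role these were 7 of 7 donor genes, 5 of 5 shared transferase subunits, 3 of 3 luminal mannosyltransferases, 3 of 6 genes of the cytosolic face, 1 of 3 luminal glucosyltransferases (ALG8) and 1 of 2 catalytic subunits (STT3A). Control 2 was at least 2 times the mean of controls 1 and 3 for 5 genes, against 11.8% of all genes: DOLK (6.15 times), MPDU1 (2.79), ALG1 (2.67), ALG3 (2.45) and DPM2 (2.38). ALG13 went the other way, at 0.643 times that mean, and so did STT3B (0.808), ALG14 (0.816), ALG11 (0.899), TUSC3 (0.929) and OSTC (0.953). The knockdown values lay inside the control range for 15 of the 29 genes, against 37.1% of all genes. Control 2 had 17942832 counts, 4.46% of counts from mitochondrial genes and a summed host marker level of 324 TPM. Of that sum CD68, listed as a macrophage marker, gave 207 TPM and ADGRE1 18.8 TPM, both the highest of the 3 controls. The other myeloid markers LYZ, ITGAM and CSF1R stood at 2.32, 0.801 and 0.319 TPM in control 2. PTPRC, AIF1, CD14, S100A8, S100A9 and CSF3R were at 0 TPM there, among 17 of the 40 markers at 0 TPM in control 2. Its host marker score, the mean log2 CPM of the 25 tested markers, was the lowest of the 6 libraries. That score was 0.514 in control 2, 2.11 and 0.732 in controls 1 and 3, and 2.39 to 2.60 in knockdown libraries. The part of these in the values of control 2 was not tested.

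The comparison between the groups moved with that library. Without control 2, 16 of the 29 genes were above 0 and 13 below, with a median log2 fold change of 0.04. Without control 1 the split was 7 above and 22 below with a median of -0.18, and without control 3 it was 6 and 23 with a median of -0.27. Without control 2, 4 of the 29 passed, RPN1 and DPM1 lower and ALG13 and ALG1 higher, while 27.7% of all genes passed in that fit. With DESeq2 3 passed, RPN1 and DPM1 lower and ALG13 higher, against 17.5% of all genes. With limma-voom and quality weights 2 passed, both lower, against 19.1%.

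Promoter sequence was available in RefSeq (GRCh38.p14) for 25 of the 29 genes and was searched over the 250 bases before the start, on both strands. ALG10, RPN1, STT3B and TUSC3 had no sequence and were not searched. The search was for CCAAT, bound by the factor NF-Y, for CCACG, for their combination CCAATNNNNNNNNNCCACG, the endoplasmic reticulum stress response element, and for TGACGTG, a related element. CCAAT was found in 11 of 25 promoters against 33.0% of all 27305, CCACG in 16 of 25 against 33.3%, the combined element in 1 of 25 against 0.0806%, and TGACGTG in 0 of 25 against 1.71%. A match describes letters and not a binding site. The promoter with the combined element was that of ALG12, chr22:49918439-49918688 (minus strand), which is printed first; ALG3, chr3:184248972-184249221 (minus strand), MPDU1, chr17:7583397-7583646 (plus strand), and DPM1, chr20:50958533-50958782 (minus strand), are printed because their fold changes were the most negative outside the transferase. Each reads 5′ to 3′ toward the gene, and capitals mark CCAAT and CCACG or their reverse complements.
ALG12: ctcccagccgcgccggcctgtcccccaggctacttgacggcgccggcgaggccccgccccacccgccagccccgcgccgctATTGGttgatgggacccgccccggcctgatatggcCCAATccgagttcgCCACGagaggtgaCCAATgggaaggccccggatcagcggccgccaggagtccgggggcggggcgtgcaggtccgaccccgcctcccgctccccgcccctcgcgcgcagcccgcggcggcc
ALG3: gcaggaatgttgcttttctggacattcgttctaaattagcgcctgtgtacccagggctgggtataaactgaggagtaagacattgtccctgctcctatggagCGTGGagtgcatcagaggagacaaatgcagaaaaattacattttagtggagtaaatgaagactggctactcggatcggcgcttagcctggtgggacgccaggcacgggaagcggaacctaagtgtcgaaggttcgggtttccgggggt
MPDU1: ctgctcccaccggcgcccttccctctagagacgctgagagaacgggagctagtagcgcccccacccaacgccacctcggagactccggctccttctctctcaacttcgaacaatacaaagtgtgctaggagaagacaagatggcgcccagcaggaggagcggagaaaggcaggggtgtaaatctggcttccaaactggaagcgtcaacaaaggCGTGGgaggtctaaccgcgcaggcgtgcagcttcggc
DPM1: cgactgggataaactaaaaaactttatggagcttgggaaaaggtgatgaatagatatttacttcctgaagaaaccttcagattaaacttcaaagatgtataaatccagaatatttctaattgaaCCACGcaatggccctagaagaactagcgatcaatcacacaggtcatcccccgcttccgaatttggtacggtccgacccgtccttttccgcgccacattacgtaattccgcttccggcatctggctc

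ALG12, whose promoter holds the combined element, stood at 17.0, 21.9 and 12.3 CPM in the controls and at 17.7, 16.9 and 16.2 CPM in the knockdown libraries. The knockdown values lay inside the control range (log2 fold change -0.01, and 0.20 without control library 2). CRELD2, a gene known to respond to endoplasmic reticulum stress, overlaps ALG12 on the opposite strand. It was at 30.5, 43.9 and 30.5 CPM in the controls and at 27.3, 28.1 and 28.3 CPM in the knockdown libraries (log2 fold change -0.33, edgeR adjusted p = 0.309); it was picked after its values were seen. ALG3, MPDU1 and DPM1 each held 1 CCACG and no CCAAT in these windows.

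The precursor also needs dolichol, nucleotide sugars and further subunits, and of 21 such genes 20 were tested. UAP1 fell and none rose (edgeR adjusted p under 0.05), so 1 of 20 passed, against 8.31% of all genes. The median log2 fold change of the 20 was -0.30, against 0.03 over all genes. The groups did not overlap for 9 of the 20, with the knockdown lower in 6 and higher in 3, where the shares over all genes were 37.6%, 15.7% and 21.9%. UAP1 makes UDP-N-acetylglucosamine, the substrate of DPAGT1 and of ALG13 with ALG14. It stood at 190.5, 201 and 188 CPM in the controls and at 119, 125 and 119 CPM in the knockdown libraries, without overlap, a fall of 1.60-fold (log2 fold change -0.68, SE 0.117, edgeR adjusted p = 0.0185). The call was lost without knockdown library 1, 2 or 3 (log2 fold change -0.66, -0.70 and -0.66; edgeR adjusted p = 0.154, 0.132 and 0.152), and with the host marker score (-0.64, edgeR adjusted p = 0.192). UAP1 did not pass on the deposited TPM scale (-0.38, limma adjusted p = 0.515) or on TPM without mitochondrial genes (-0.48, limma adjusted p = 0.0618), nor with the replicate block (-0.68, edgeR adjusted p = 0.0887).

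None of the other enzymes of the route to UAP1 that are named here passed. PGM3, the phosphomutase before it, was at 43.3, 36.2 and 47.2 CPM in the controls and at 29.03, 27.0 and 29.6 CPM in the knockdown libraries (log2 fold change -0.56, SE 0.151, edgeR adjusted p = 0.0609). GNPNAT1, the acetyltransferase of the same route, was at 85.3, 81.9 and 91.9 CPM in the controls and at 62.6, 70.6 and 65.8 CPM in the knockdown libraries (-0.38, edgeR adjusted p = 0.102). For both genes all controls lay above all knockdown libraries. The entry enzymes GFPT1 (0.12, edgeR adjusted p = 0.720) and GFPT2 (-0.66, edgeR adjusted p = 0.334) overlapped between the groups.

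Dolichol synthesis showed a similar mixture. NUS1, a subunit of the prenyltransferase that makes the dolichol chain, was at 95.9, 69.97 and 112 CPM in the controls and at 55.8, 60.5 and 61.1 CPM in the knockdown libraries (log2 fold change -0.65, SE 0.186, edgeR adjusted p = 0.0741). Its catalytic partner DHDDS was at 17.5, 22.9 and 19.4 CPM in the controls and at 24.4, 23.3 and 25.99 CPM in the knockdown libraries (0.30, edgeR adjusted p = 0.300). The groups did not overlap for either gene, and they stood on opposite sides of 0. The mannose route from MPI through PMM1 and PMM2 to GMPPA and GMPPB had log2 fold changes of -0.41, -0.14, 0.37, -0.24 and 0.09, and none passed. The transferase subunits KRTCAP2 (0.03) and TMEM258 (-0.13) and the lectin MLEC (-0.36), which binds RPN1, did not pass either. Without control library 2, 7 of the 20 passed, UAP1, PGM3, GNPNAT1, NUS1, GFPT2 and UGP2 lower and DHDDS higher, in the fit where 27.7% of all genes passed. Beyond UAP1, PGM3 and NUS1 the genes named from these 20 were chosen after their values were seen.

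**Figure D4:**
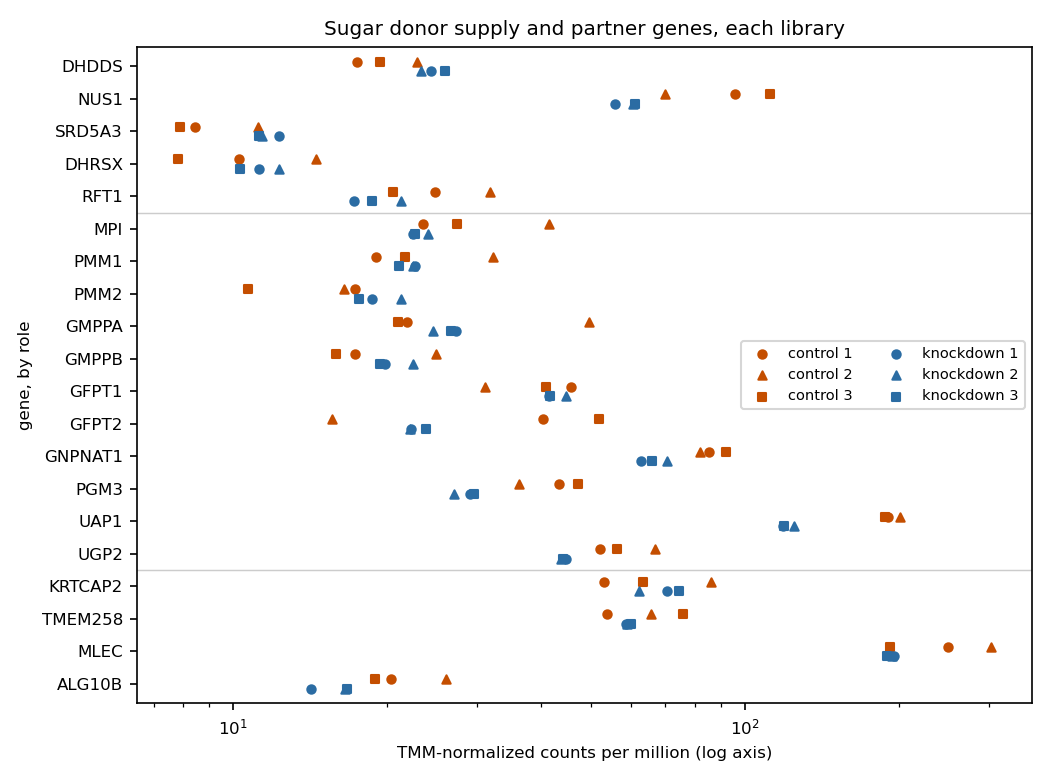
TMM-normalized CPM (log axis) of the 20 tested genes of dolichol synthesis, nucleotide sugar supply and further subunits; each point is 1 library, orange for control and blue for knockdown. UAP1, PGM3, GNPNAT1, NUS1, UGP2 and ALG10B show the knockdown points below all control points. DHDDS, SRD5A3 and PMM2 show them above, by narrow gaps.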

How the data were processed

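RNA of 3 control and 3 GANAB knockdown UMUC3 libraries was sequenced. The authors deposited estimated counts, whole numbers for 21503 genes, and TPM for 60233 genes. The submitters' processing notes name fastp, Salmon, DESeq2 and GRCh38; for their roles and versions, the transcript set and the handling of mouse reads, the sources used here give no detail. Columns of the second group are headed KO in the deposited tables and knockdown in the labels.

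Counts were tested with edgeR 4.0.16 (R 4.3.3; filterByExpr, TMM, quasi-likelihood, Benjamini-Hochberg adjusted p under 0.05) over the 19430 genes left after 2073 were removed for low counts. Log2 fold changes are knockdown minus control, and intervals are at 95%. Levels of different genes were compared only on TPM. Log ratios of paralogues were compared by exact permutation over libraries. The procedure was tested on simulated counts that gave both groups the same dispersion. The control and knockdown groups differed in spread, so that simulation does not cover this difference.

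There were 20 alternatives: DESeq2 1.42.0, limma 3.58.1 with voom or on log2 TPM with a pseudocount of 1 or 0.1, other scalings and filters, each library left out, a replicate block and a host marker score. The 2 without mitochondrial genes were chosen after seeing the data.

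The members, the further pathway genes and the markers were chosen with earlier results of these data known. Named were all 29 members and, of the further genes, those that passed and the next by p up to 3; other names, and values per library beyond the 5 smallest p and the paralogues, were added after values were seen. Gene positions are from GENCODE (GRCh38).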

Additional observations from a re-analysis of the deposited data

How the results depend on the processing

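RPN1 kept its direction in all 20 alternatives and passed in 12. Of 580 values of a member under an alternative, 483 kept their side of the threshold and their sign, 9 newly passed, 8 no longer passed, and 80 changed sign without a call. The count of all genes that passed, 1614, was 3676 with DESeq2, 3716 with limma-voom and quality weights, 828, 526 and 68 on log2 TPM (pseudocount 1, pseudocount 0.1, no filter), 1 with the host marker score and 62 to 5604 with 1 library left out. On log2 TPM with pseudocount 1 the 828 were 751 higher and 77 lower, against 892 and 722. The count of the 29, 1, was 3 with DESeq2, 2 with limma-voom (2348 of all 19430 genes), 2 with quality weights, 2 with the filter at 5 CPM (1806 of 11786), 0 in the 3 TPM settings, 0 with the host marker score and 0 to 4 with 1 library left out. The count of the 20 further pathway genes, 1, was 4, 2, 5, 2, 0, 0 and 0 to 7 in the same order, and 0 on TPM without mitochondrial genes. The median over the 29, -0.09, was 0.19, 0.20 and 0.19 on the TPM settings, where the median of all genes was 0.23, 0.28 and 0.00; it was 0.12 with the host marker score and -0.27 to 0.04 with 1 library left out. The log2 ratio of MAGT1 to TUSC3, -0.09 on TPM, was 0.079 from CPM. Left out singly, control 2 gave 5604 genes and knockdown libraries 1, 2 and 3 gave 62, 115 and 88; of the 29, controls 1 and 2 gave 2 and 4 and each knockdown library 0. For these shifts the cause was not tested. Leaving out a library leaves fewer samples, by the same number in each such fit, whichever way the count moved.

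With the replicate block 566 genes passed in all, 0 of the 29 and 0 of the 20; the RPN1 value was -0.76 (edgeR adjusted p = 0.0739). Deviations of same-numbered libraries from their group means correlated at 0.00223 to 0.0218, and those of libraries with different numbers at -0.0185 to 0.00189. Each library correlated best with its own number. The labels do not say whether libraries are paired, and values this small do not settle it.

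A group of 3 libraries, with 11737837 counts in the shallowest, limits all values, and DOLK, with 6 counts in control 3, most.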
